A study of Mus musculus with 12 samples.

Results

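The genes described here are 34 genes of the cellular response to low oxygen, glycolytic enzymes left aside. They are the oxygen-sensing machinery of the hypoxia-inducible factors (HIF) and genes known as HIF targets. They were listed by gene symbol, with earlier results of these data known. Each gene was read from the microarray probe sets annotated with exactly 1 gene symbol, and where a gene had several, from whichever set had the highest mean across the 12 arrays. Such a probe set was present for 33 of the 34, and P4ha1, a collagen prolyl hydroxylase subunit, had none and has no value here. Of these 33, 32 passed the filter on low values and were tested, among 12488 tested genes of 17097 genes with a single-gene probe set. The filter level was 2.77 on the log2 scale, the 40th percentile of all values, to be exceeded on at least 3 arrays, so a gene present in 1 group alone passed through that group. Stc1, a secreted glycoprotein hormone, failed it, with 2.89, 2.63 and 2.63 in spheres and 2.59, 2.69 and 2.44 outside at 24 h, and 2.52, 2.84 and 2.62 against 2.53, 2.26 and 2.52 at 48 h. All other genes than Stc1, Stc2, Epas1, Loxl2 and Car12 exceeded the level on every array.

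The study set out to model tumour-associated macrophages in culture. Spheres of TT9423, a mouse neuroblastoma line, were formed on agar, and macrophages grown from the bone marrow of C57BL/6 mice were added. The 4 groups of 3 arrays compared macrophages that had entered the spheres with macrophages of those cultures that had stayed out, at 24 h and at 48 h, and each replicate was an independent experiment pooled over wells. In-sphere cells carry the label CD11b+ and were obtained by enzymatic digestion and CD11b magnetic columns. For the cells outside, labelled as isolated from agar culture, the sources used here do not say whether digestion and columns were used as well, so the handling and the site of the cells cannot be told apart. A protocol common to all samples gives 24 h of co-culture, and 48 h rests on the titles and the time label. No array of TT9423 cells alone or of macrophages kept without spheres was analysed here, and oxygen itself was not measured in the data used here.

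In cells with enough oxygen, prolyl hydroxylases of the Egln family mark the HIF alpha subunits Hif1a and Epas1, the Vhl ubiquitin ligase binds the marked protein, and it is degraded. When oxygen falls the mark is lost, and the alpha subunit pairs with Arnt and binds short DNA elements in genes for collagen modification, pH control, blood vessel growth, mitochondrial turnover and the sensors themselves. Macrophages in poorly perfused tissue are known to use this pathway, and in them Hif1a is also raised through inflammatory signals. HIF alpha is controlled largely at the protein, which these arrays do not read.

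Values are log2 expression per probe set from RMA, which normalises all arrays to 1 common distribution, and each difference is in-sphere minus outside on that scale ± its standard error. A gene was called at a limma adjusted p under 0.05, Benjamini-Hochberg over the 12488 genes. The level of 1 probe set was not set against that of another, except in the summed signals of gene lists. Array mean log2 values ran from 4.20 to 4.22 except in replicate 3 in spheres at 48 h, at 4.06, which had also the lowest limma array weight (0.235). The probe-set values of that array thus lay lower on average than those of the other arrays despite that normalisation. A fit with arrays centred on their medians is among the alternatives. The number of arrays limits the precision, and in cells pooled this way fewer cells of a type and less RNA per cell cannot be told apart.

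Most of the genes were higher in macrophages inside spheres. At 24 h, 20 of the 32 tested genes were called higher and 2 lower, beside 15.8% of all tested genes called higher and 13.6% called lower. At 48 h, 20 were higher and 1 was lower, beside 15.2% and 22.3% of all tested genes. The median difference of the 32 genes was 0.84 at 24 h and 0.75 at 48 h, and that of all tested genes was -0.0068 and -0.10. The lysyl hydroxylase Plod2, the carbonic anhydrase Car9, the collagen prolyl hydroxylase subunit P4ha2, the mitochondrial protein Fam162a and the oxygen sensor Egln3 had the largest differences at 24 h. In all, 18 genes were called higher at both times and Epas1 was lower at both. The share of all tested genes called at both times was not counted, so these counts have no such share beside them. Car12 and Stc2 were called higher at 24 h alone, Ccng2 and Hilpda at 48 h alone, and Wsb1 was lower at 24 h alone; whether the difference itself moved between times is tested further on. Arnt, Vhl, Cited2, Lox, Bnip3l, Ddit4, Kdm3a and Kdm4b were called at neither time. Without replicate 3 in spheres at 48 h, that comparison again had 20 genes higher and 1 lower, with Arnt called in place of Ccng2.

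**Figure D1:**
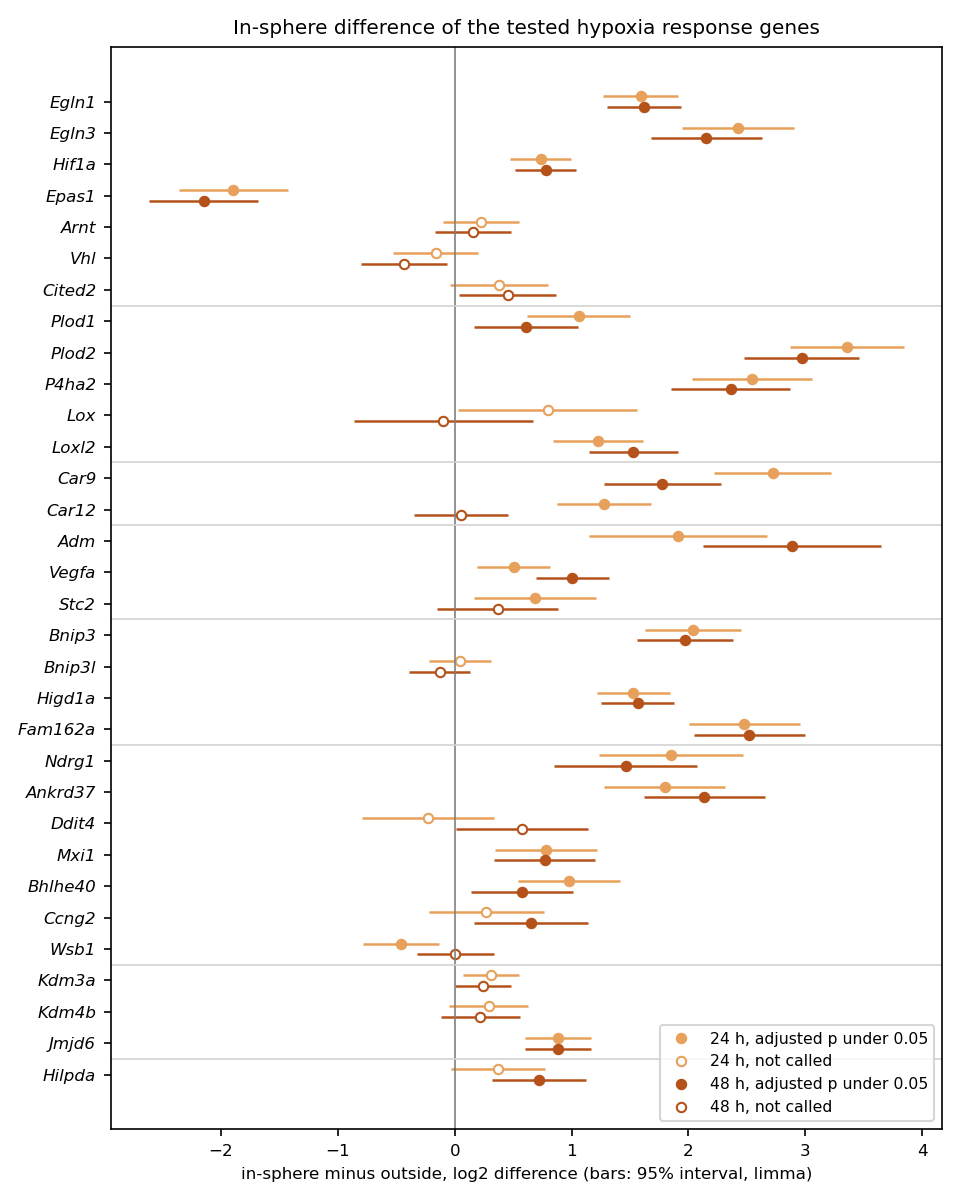
Each point is the in-sphere minus outside log2 difference of 1 gene at 24 h (light) or 48 h (dark), and bars are 95% intervals of the limma fit over 12 arrays, with filled points for adjusted p under 0.05 and grey lines between roles. Plod2 lies farthest to the right at 3.36 and 2.97, and Epas1 farthest to the left at -1.89 and -2.15.

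HIF binds a short core in DNA, and the 250 bases before the transcription start were searched for it as ACGTG or GCGTG on both strands, a palindromic CACGTG counting as overlapping matches. RefSeq promoters of the build GRCm38.p6 held 32 entries for 25 of the 34 genes. Either core was present in 24 of these 32 windows (75%), against 12679 of 32851 RefSeq windows (38.6%). ACGTG was in 53.1% of the genes' windows and 16.6% of all, and GCGTG in 56.2% and 28.2%. Counted by gene, 23 of 25 genes (92%) had a match in at least 1 window, against 41.5% of all genes. Many of the genes were listed as known HIF targets, so these shares describe the list and use no value of the arrays. Both cores contain CpG, and the median window held 19.5 CpG in these genes and 6 in all, so the shares were not compared at equal CpG content. Windows of Vhl, not called at 24 h, and of Car12, called higher at 24 h, held no match. Arnt, Ccng2, Cited2, Ddit4, Hilpda and Kdm3a, also not called at 24 h, had a match in at least 1 window. A match was thus present in called and in uncalled genes. The windows of the 6 genes with an entry and the largest differences at 24 h are shown, to set the core beside the genes that differ most, and 1 of the 2 windows of Wsb1 is added, as a gene called lower at 24 h, a call lost in 5 fits that left out 1 array. The other Wsb1 window held no match. Capitals mark the matches, and each window is written 5′ to 3′ on the gene's own strand. They lie at chr4:43506776-43507025 on the plus strand for Car9, chr11:54100674-54100923 on the plus strand for P4ha2, chr16:36071562-36071811 on the minus strand for Fam162a, chr12:54203875-54204124 on the minus strand for Egln3, chr7:138909507-138909756 on the minus strand for Bnip3, chr7:110627407-110627656 on the plus strand for Adm, and chr11:79254696-79254945 on the minus strand for Wsb1.

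Car9: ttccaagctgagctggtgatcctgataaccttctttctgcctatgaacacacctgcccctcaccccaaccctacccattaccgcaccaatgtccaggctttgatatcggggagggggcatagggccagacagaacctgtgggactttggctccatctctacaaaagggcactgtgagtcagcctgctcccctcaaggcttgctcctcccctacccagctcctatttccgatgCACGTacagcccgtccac
P4ha2: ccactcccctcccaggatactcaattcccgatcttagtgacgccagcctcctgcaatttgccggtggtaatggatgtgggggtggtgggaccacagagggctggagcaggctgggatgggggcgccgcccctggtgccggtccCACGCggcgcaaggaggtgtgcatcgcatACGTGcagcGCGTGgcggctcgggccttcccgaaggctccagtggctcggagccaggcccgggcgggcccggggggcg
Fam162a: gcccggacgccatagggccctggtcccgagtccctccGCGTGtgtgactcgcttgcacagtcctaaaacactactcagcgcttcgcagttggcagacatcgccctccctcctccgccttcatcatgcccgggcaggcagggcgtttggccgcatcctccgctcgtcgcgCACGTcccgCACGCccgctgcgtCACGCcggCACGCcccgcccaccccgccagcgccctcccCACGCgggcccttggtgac
Egln3: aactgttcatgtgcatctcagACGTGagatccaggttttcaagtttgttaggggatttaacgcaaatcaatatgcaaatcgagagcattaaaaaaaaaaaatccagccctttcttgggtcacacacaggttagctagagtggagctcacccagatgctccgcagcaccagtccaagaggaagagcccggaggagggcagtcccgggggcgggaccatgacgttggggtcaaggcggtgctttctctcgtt
Bnip3: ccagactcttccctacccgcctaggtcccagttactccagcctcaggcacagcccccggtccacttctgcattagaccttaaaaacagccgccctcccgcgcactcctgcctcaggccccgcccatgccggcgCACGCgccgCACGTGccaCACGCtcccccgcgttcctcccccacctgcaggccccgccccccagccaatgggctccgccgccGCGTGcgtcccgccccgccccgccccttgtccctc
Adm: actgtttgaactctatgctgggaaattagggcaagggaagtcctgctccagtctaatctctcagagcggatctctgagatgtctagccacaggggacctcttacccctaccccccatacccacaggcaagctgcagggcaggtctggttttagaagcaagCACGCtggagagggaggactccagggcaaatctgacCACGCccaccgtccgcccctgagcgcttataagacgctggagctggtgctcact
Wsb1: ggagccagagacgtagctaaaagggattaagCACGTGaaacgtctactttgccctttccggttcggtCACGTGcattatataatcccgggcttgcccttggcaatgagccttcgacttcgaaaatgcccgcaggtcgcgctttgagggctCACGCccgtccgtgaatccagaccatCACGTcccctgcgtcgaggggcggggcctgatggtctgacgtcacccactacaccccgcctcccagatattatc

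Counting back from the base before the start as -1, the only match in the Car9 window began at -18 and the only match in the Egln3 window at -229. The 3 matches of P4ha2 began at -107, -78 and -69. Fam162a had 6 matches, beginning at -213, -81, -72, -58, -50 and -19, and Bnip3 had 5, at -117, -108, -107, -99 and -35. Adm had 2, at -90 and -54, and Wsb1 had 6, at -219, -218, -183, -182, -100 and -74. A match describes letters in this window and no binding was measured in the data used here.

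Among the oxygen-sensing genes, the alpha subunits moved in opposite directions in spheres, and the sensors Egln1 and Egln3 were higher. Egln2, not among the genes listed here, was lower at 48 h and is given further on. Hif1a, the broadly expressed alpha subunit, read 10.11, 10.10 and 10.14 in spheres and 9.46, 9.20 and 9.49 outside at 24 h (replicates 1, 2 and 3, in that order throughout). At 48 h it read 9.93, 10.02 and 9.99 against 9.35, 9.22 and 9.03. Every in-sphere array was above every outside array, and the difference was 0.74 ± 0.12 at 24 h (adjusted p = 0.000664) and 0.78 ± 0.12 at 48 h (adjusted p = 0.000312). A second Hif1a probe set went the other way, at -0.26 and -0.30, and with the mean of the probe sets Hif1a was no longer called, at 0.24 and 0.24 (adjusted p = 0.279 and 0.241, over all alternatives 0.000227 to 0.279 and 2.26e-05 to 0.241).

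Epas1, which encodes the HIF alpha subunit also called HIF-2 alpha, read 2.92, 2.59 and 2.49 in spheres against 4.28, 4.77 and 4.62 outside at 24 h. Its values at 48 h were 2.90, 2.98 and 2.22 against 5.05, 4.58 and 4.94. The groups did not overlap, and in spheres it exceeded the filter level on 1 of 3 arrays at 24 h and 2 of 3 at 48 h. The difference was -1.89 ± 0.22 at 24 h (adjusted p = 5.98e-05) and -2.15 ± 0.22 at 48 h (adjusted p = 1.58e-05), with no fold given because the in-sphere means lay below the filter level and Epas1 passed the filter mainly through the outside arrays. A second Epas1 probe set was above the level on 0 arrays. With both averaged, the difference was -0.94 and -1.10.

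Egln1, the main HIF prolyl hydroxylase in most cells, read 8.72, 8.20 and 8.42 in spheres and 7.00, 6.91 and 6.66 outside at 24 h, and 8.44, 8.20 and 8.47 against 6.73, 6.78 and 6.73 at 48 h. Its difference was 1.59 ± 0.15 (adjusted p = 1.32e-05) and 1.62 ± 0.15 (adjusted p = 7.49e-06), close to 3.01-fold and 3.08-fold. Egln3, the family member known for strong induction by HIF, read 9.91, 9.10 and 9.37 against 7.38, 6.98 and 6.76 at 24 h, and 9.48, 8.98 and 9.29 against 7.21, 7.18 and 6.90 at 48 h. Its difference was 2.42 ± 0.22 (adjusted p = 1.2e-05) and 2.15 ± 0.22 (adjusted p = 1.73e-05), or 5.36-fold and 4.45-fold. For both genes all in-sphere arrays stood above all outside arrays, and their second probe sets differed in the same direction, by 2.52 and 2.20 for Egln1 and by 2.35 and 1.82 for Egln3.

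Arnt, the beta subunit shared by the alpha subunits, was at 7.00 ± 0.10 (mean ± SD) in spheres and 6.77 ± 0.096 outside at 24 h. It was not called at 24 h (0.23 ± 0.15, 95% interval -0.10 to 0.55) or at 48 h (0.16 ± 0.15, -0.17 to 0.48), and without replicate 3 in spheres at 48 h or with array weights it was called there (adjusted p = 0.0488 and 0.0494, over all alternatives 0.0488 to 0.943). Vhl, the substrate-binding part of the ligase, was at 5.86 ± 0.39 in spheres and 6.29 ± 0.011 outside at 48 h, with differences of -0.16 ± 0.17 and -0.43 ± 0.17 that missed the threshold (adjusted p = 0.533 and 0.06). Without replicate 1 in spheres at 48 h, with arrays centred on their medians and with array weights it passed there (adjusted p = 0.0265, 0.0429 and 0.0469, over all alternatives 0.0265 to 0.203). Cited2, a regulator that competes with HIF for its coactivators, gave 0.38 ± 0.19 and 0.45 ± 0.19 (adjusted p = 0.168 and 0.083), and without replicate 1 in spheres at 24 h, its lowest in-sphere array at that time, it passed there (adjusted p = 0.0343, over all alternatives 0.0343 to 0.588). At 48 h Cited2 passed with array weights (adjusted p = 0.0314) and in a fit of those arrays alone (0.0257), over all alternatives 0.0257 to 0.213.

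**Figure D2:**
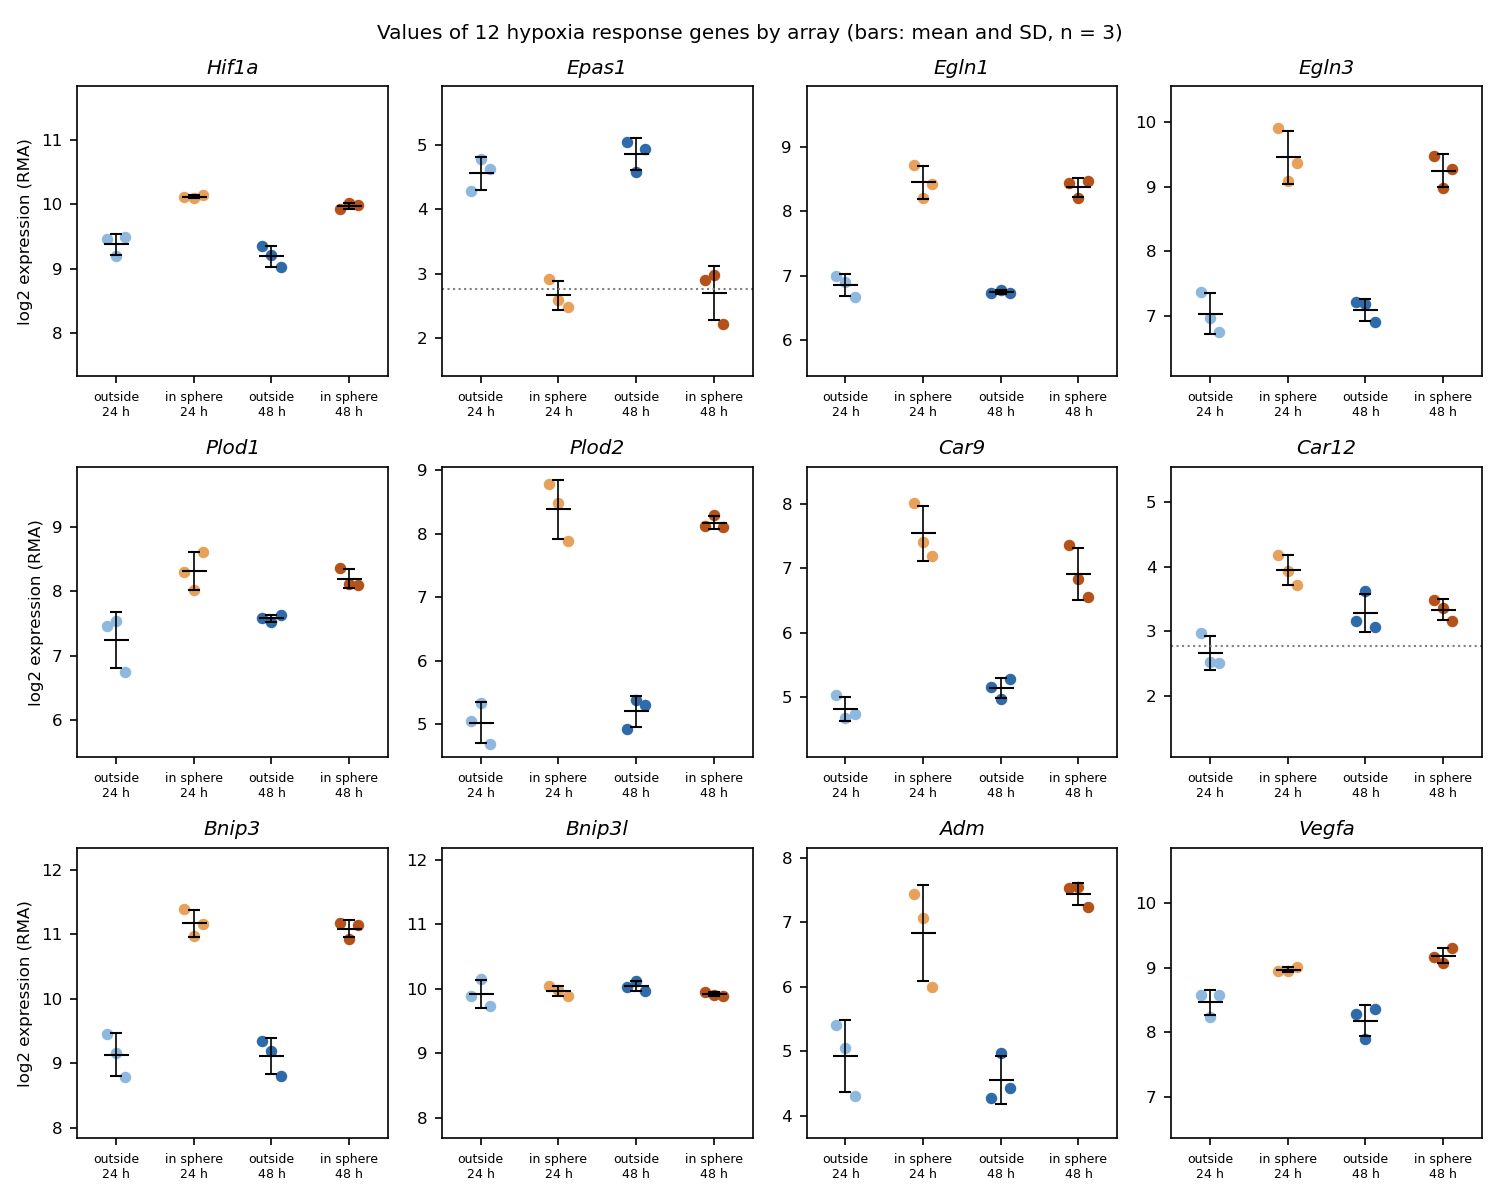
Points are the log2 values of the 12 arrays for 12 of the genes, by group, with the mean and SD (n = 3) as bars and the filter level of 2.77 as a dotted line where it falls in the panel; panels differ in where their axis starts. Egln1, Egln3, Plod2, Car9, Bnip3 and Adm have all in-sphere points above all outside points at both times, Epas1 has them below, and Bnip3l has them overlapping at 24 h and slightly below at 48 h.

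Of the collagen-modifying enzymes, 4 of 5 tested were called higher at each time. Fibroblasts and tumour cells are known to express these enzymes as well, and on the same arrays 5 of 13 markers of fibroblasts and stroma rose and 3 fell at 24 h, and 6 and 4 did at 48 h. The part of such cells was not tested. Among all tested genes 15.8% were called higher and 13.6% lower at 24 h, and 15.2% and 22.3% at 48 h. Plod2, which hydroxylates lysines in the collagen telopeptides, read 8.78, 8.48 and 7.88 in spheres and 5.05, 5.34 and 4.69 outside at 24 h. At 48 h the arrays gave 8.12, 8.29 and 8.11 against 4.93, 5.38 and 5.30. The groups were far apart, and the difference was 3.36 ± 0.23 (adjusted p = 2.06e-06) and 2.97 ± 0.23 (adjusted p = 2.38e-06), or 10.2-fold and 7.83-fold, the largest differences among the 32 genes at both times. Its second probe set gave 2.34 and 1.47. Its paralogue Plod1, which hydroxylates lysines in the helical part, read 8.30, 8.02 and 8.61 against 7.45, 7.54 and 6.74 at 24 h, and 8.37, 8.11 and 8.10 against 7.58, 7.52 and 7.64 at 48 h. The groups did not overlap, and the difference was 1.06 ± 0.20 (adjusted p = 0.00203) and 0.61 ± 0.20 (adjusted p = 0.0323). The 48 h call was lost without replicate 1 (0.0993) or 2 (0.0532) in spheres, or without replicate 1 (0.0739), 2 (0.0865) or 3 (0.0631) outside, as adjusted p, over all alternatives 0.00695 to 0.315. Averaging the probe sets gave 0.50 and 0.22, the latter not called.

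P4ha2, a catalytic subunit of the collagen prolyl hydroxylase, read 8.75, 7.99 and 7.89 in spheres and 5.90, 5.77 and 5.32 outside at 24 h, and 8.46, 8.15 and 8.29 against 5.92, 6.25 and 5.64 at 48 h. No array of one group reached the other, and the difference was 2.54 ± 0.23 (adjusted p = 1.32e-05) and 2.36 ± 0.23 (adjusted p = 1.47e-05). Loxl2, which cross-links collagen, read 4.30, 4.11 and 4.19 against 2.67, 3.23 and 3.02 at 24 h and 4.04, 4.52 and 4.17 against 2.44, 2.79 and 2.91 at 48 h. It was higher in spheres by 1.23 ± 0.18 (adjusted p = 0.000302) and 1.53 ± 0.18 (adjusted p = 3.96e-05), from values outside that exceeded the filter level on 2 of 3 arrays at each time. Lox, the founding member of that enzyme family, read 8.36, 7.52 and 7.11 against 6.57, 7.08 and 6.95 at 24 h and 7.34, 7.24 and 6.59 against 6.43, 7.42 and 7.61 at 48 h. In-sphere arrays were all above outside arrays at 24 h and overlapped them at 48 h, and neither difference was called, at 0.80 ± 0.35 (adjusted p = 0.112) and -0.097 ± 0.35 (adjusted p = 0.858). Without replicate 3 in spheres the 24 h difference passed (adjusted p = 0.0491, over all alternatives 0.0491 to 0.397).

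The membrane-bound carbonic anhydrases, which convert carbon dioxide at the cell surface and so act on pH, were both higher at 24 h. Car9, a widely used marker of hypoxic tissue, read 8.01, 7.42 and 7.20 in spheres and 5.04, 4.68 and 4.74 outside at 24 h. At 48 h it read 7.36, 6.83 and 6.56 against 5.17, 4.97 and 5.28. The groups were apart at both times, by 2.72 ± 0.23 (adjusted p = 7.96e-06) and 1.77 ± 0.23 (adjusted p = 9.11e-05), or 6.59-fold and 3.42-fold. Car12, its paralogue, read 4.18, 3.93 and 3.72 in spheres and 2.97, 2.52 and 2.51 outside at 24 h, and 3.49, 3.36 and 3.16 against 3.15, 3.63 and 3.07 at 48 h. Its difference was 1.28 ± 0.19 at 24 h (adjusted p = 0.000324), with 1 of 3 outside arrays above the filter level, and 0.052 ± 0.19 at 48 h (adjusted p = 0.857), where the groups overlapped. With its second probe set, which was above the level on 0 arrays, averaged in, the 24 h difference was 0.68.

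All 3 tested genes for secreted signals were called higher at 24 h and 2 of them at 48 h, beside 15.8% and 15.2% of all tested genes. Adm, the vasodilator peptide adrenomedullin, read 7.43, 7.07 and 6.01 in spheres and 5.41, 5.05 and 4.31 outside at 24 h, and 7.53, 7.55 and 7.24 against 4.28, 4.97 and 4.43 at 48 h. In-sphere arrays were the higher ones throughout, by 1.91 ± 0.35 (adjusted p = 0.00147) and 2.89 ± 0.35 (adjusted p = 5.68e-05), with a spread at 24 h of 0.74 (SD) in spheres, the widest in-sphere spread of the 33 genes at that time. Vegfa, the angiogenic growth factor, read 8.95, 8.95 and 9.02 against 8.57, 8.24 and 8.59 at 24 h and 9.17, 9.08 and 9.31 against 8.28, 7.90 and 8.36 at 48 h. The groups did not overlap, and the difference was 0.50 ± 0.14 (adjusted p = 0.0189) and 1.01 ± 0.14 (adjusted p = 0.00019), the first lost without outside replicate 2 (adjusted p = 0.0824, over all alternatives 0.000359 to 0.0824). A second probe set gave 0.98 and 1.35. Stc2, a stanniocalcin hormone, lay near the filter level, at 3.22, 3.62 and 3.45 against 2.63, 2.72 and 2.87 at 24 h and 3.92, 3.00 and 2.74 against 2.78, 2.88 and 2.89 at 48 h. Its differences were 0.68 ± 0.24 (adjusted p = 0.0488) and 0.37 ± 0.24 (adjusted p = 0.256), the wide spread at 48 h coming with 1 high array, replicate 1. The 24 h call for Stc2 did not survive the replicate block (adjusted p = 0.0639), the removal of replicate 1 (0.0579), 2 (0.147) or 3 (0.1) in spheres, or the removal of replicate 1 (0.129), 2 (0.107) or 3 (0.0739) outside. Averaged over its probe sets the difference was 0.28, not called (adjusted p = 0.121, over all alternatives 0.00446 to 0.147).

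Of the mitochondrial genes, Bnip3 was higher in spheres and its close relative Bnip3l was not called. Bnip3, a receptor for mitophagy on the outer membrane, read 11.39, 10.97 and 11.16 in spheres and 9.45, 9.16 and 8.78 outside at 24 h, and 11.18, 10.93 and 11.15 against 9.34, 9.19 and 8.81 at 48 h. Each in-sphere array was above each outside array, at 2.04 ± 0.19 (adjusted p = 1.32e-05) and 1.97 ± 0.19 (adjusted p = 1.14e-05). Bnip3l, also called Nix, read 10.04, 9.98 and 9.89 against 9.89, 10.15 and 9.72 at 24 h and 9.94, 9.91 and 9.88 against 10.03, 10.12 and 9.97 at 48 h. The arrays overlapped at 24 h, and at 48 h the in-sphere ones were slightly below the outside ones without a call (-0.13 ± 0.12, adjusted p = 0.437). Its intervals of -0.22 to 0.31 and -0.39 to 0.13 held no difference as large as that of Bnip3, and its other 2 probe sets gave between -0.21 and -0.017. The genes' difference from each other was not tested. Fam162a, a mitochondrial protein induced by HIF, read 11.68, 11.16 and 11.30 against 9.29, 8.91 and 8.51 at 24 h and 11.43, 11.00 and 11.34 against 8.72, 9.03 and 8.45 at 48 h. It was higher by 2.48 ± 0.22 (adjusted p = 1.07e-05) and 2.52 ± 0.22 (adjusted p = 5.72e-06), or 5.57-fold and 5.74-fold. Averaged with its second probe set the difference was 1.40 and 1.31. Higd1a, an inner-membrane protein tied to the respiratory chain, read 10.01, 9.54 and 9.63 against 8.27, 8.23 and 8.08 at 24 h and 9.76, 9.45 and 9.63 against 8.06, 8.16 and 7.91 at 48 h. Its arrays were separated at both times, by 1.53 ± 0.14 (adjusted p = 1.45e-05) and 1.57 ± 0.14 (adjusted p = 8.32e-06), and averaging its probe sets gave 0.93 and 0.57.

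Among regulators of growth and transcription, Ndrg1, Ankrd37, Mxi1 and Bhlhe40 were higher at both times. Ndrg1, a stress-induced cytoplasmic protein, read 9.39, 9.25 and 9.60 in spheres and 7.53, 8.05 and 7.11 outside at 24 h, and 8.93, 8.80 and 8.48 against 6.98, 7.94 and 6.89 at 48 h. Replicate 2 was the highest outside array at each time and still lay below all in-sphere arrays, and the difference was 1.85 ± 0.28 (adjusted p = 0.000449) and 1.46 ± 0.28 (adjusted p = 0.0015). Ankrd37, an ankyrin-repeat protein known as a direct HIF target, read 7.79, 7.20 and 7.53 against 5.69, 5.87 and 5.57 at 24 h and 7.80, 7.48 and 7.45 against 5.08, 6.07 and 5.17 at 48 h. Here too the groups did not overlap, with differences of 1.80 ± 0.24 (adjusted p = 0.000178) and 2.14 ± 0.24 (adjusted p = 3.19e-05). Mxi1, a MAX partner that opposes MYC, gave 0.78 ± 0.20 (adjusted p = 0.0109) and 0.77 ± 0.20 (adjusted p = 0.00967). Its second probe set gave 0.11 and 0.94, and the 24 h call was lost when the sets were averaged, at 0.44 (adjusted p = 0.114, over all alternatives 0.00742 to 0.114).

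Bhlhe40, a transcriptional repressor, was at 8.93 ± 0.16 in spheres and 7.95 ± 0.36 outside at 24 h, and at 8.53 ± 0.24 and 7.95 ± 0.29 at 48 h. The difference was 0.98 ± 0.20 (adjusted p = 0.00317) and 0.58 ± 0.20 (adjusted p = 0.0403). Its 48 h call was lost without replicate 1 (0.138) or 2 (0.0597) in spheres and without replicate 1 (0.16) or 3 (0.0808) outside, as adjusted p, over all alternatives 0.014 to 0.16. Ccng2, a cyclin linked to cell cycle arrest, read 8.15, 7.80 and 7.92 in spheres and 6.80, 7.84 and 7.27 outside at 48 h. It was called there although replicate 2 outside reached into the in-sphere range, at 0.65 ± 0.23 (adjusted p = 0.0377), and not at 24 h (0.27 ± 0.23, adjusted p = 0.422). That call was lost without replicate 1 (0.112) or 3 (0.0689) in spheres, without replicate 1 outside, where the difference was 0.40 (0.161), without replicate 3 outside (0.0908), in a fit of the 48 h arrays alone (0.0886) and with the mean of its probe sets, at 0.43 (0.117), as adjusted p, over all alternatives 0.00424 to 0.161.

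Wsb1, a ubiquitin ligase subunit listed among HIF targets, read 8.79, 8.86 and 8.88 in spheres and 9.16, 9.33 and 9.41 outside at 24 h. All in-sphere arrays were below all outside arrays, and the difference was -0.46 ± 0.15 (adjusted p = 0.037). At 48 h the values overlapped, 9.17, 8.88 and 9.00 against 8.72, 9.32 and 8.99, with a difference of 0.0068 ± 0.15 (adjusted p = 0.978). The 24 h call was lost without replicate 1 (0.0963), 2 (0.0772) or 3 (0.0611) in spheres and without replicate 2 (0.0902) or 3 (0.119) outside, as adjusted p, over all alternatives 0.0273 to 0.119. Ddit4, an inhibitor of mTORC1 signalling, read 7.12, 7.19 and 6.62 against 6.74, 7.17 and 7.71 at 24 h and 7.55, 7.66 and 7.69 against 6.56, 7.20 and 7.41 at 48 h. Groups overlapped at 24 h, and at 48 h replicate 1 outside was by far its lowest array, and all outside arrays lay below the in-sphere ones. Neither difference was called, at -0.23 ± 0.26 (adjusted p = 0.568) and 0.58 ± 0.26 (adjusted p = 0.101).

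Of the chromatin and RNA-associated oxygenases, enzymes that need oxygen for their own reaction, only Jmjd6 was called among the 3 tested. Over all tested genes 29.4% were called in either direction at 24 h and 37.5% at 48 h. Jmjd6, a lysyl hydroxylase acting on splicing proteins, read 7.49, 7.13 and 7.40 in spheres and 6.47, 6.50 and 6.41 outside at 24 h, and 7.37, 7.14 and 7.08 against 6.17, 6.45 and 6.31 at 48 h. The in-sphere arrays were all higher, by 0.88 ± 0.13 (adjusted p = 0.000363) and 0.89 ± 0.13 (adjusted p = 0.000229). Averaging its probe sets lowered the 24 h difference to 0.50. Kdm3a, a histone demethylase, read 8.52, 8.45 and 8.35 against 8.15, 8.17 and 8.07 at 24 h. Its groups did not overlap, with a small difference of 0.31 ± 0.11 that missed the threshold (adjusted p = 0.053). It passed with array weights (adjusted p = 0.0208), a random block (0.0479), the stricter filter (0.0393) and the mean of probe sets for all genes (0.0424), and without replicate 3 in spheres (0.0483), over all alternatives 0.0208 to 0.144. At 48 h it was 0.24 ± 0.11 (adjusted p = 0.108). Kdm4b, another histone demethylase, gave 0.29 ± 0.16 and 0.22 ± 0.16, with 95% intervals of -0.05 to 0.63 and -0.12 to 0.56. Hilpda, a lipid droplet protein that restrains lipolysis, read 9.32, 9.19 and 9.29 against 9.28, 8.46 and 8.95 at 24 h and 9.71, 9.31 and 9.62 against 8.95, 8.66 and 8.86 at 48 h. Replicate 1 outside reached the in-sphere range at 24 h, and the groups were apart at 48 h. The difference was 0.37 ± 0.19 (adjusted p = 0.159) and 0.72 ± 0.19 (adjusted p = 0.00876), and without replicate 1 outside the 24 h difference was called too (adjusted p = 0.0368, over all alternatives 0.0368 to 0.55).

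**Figure D3:**
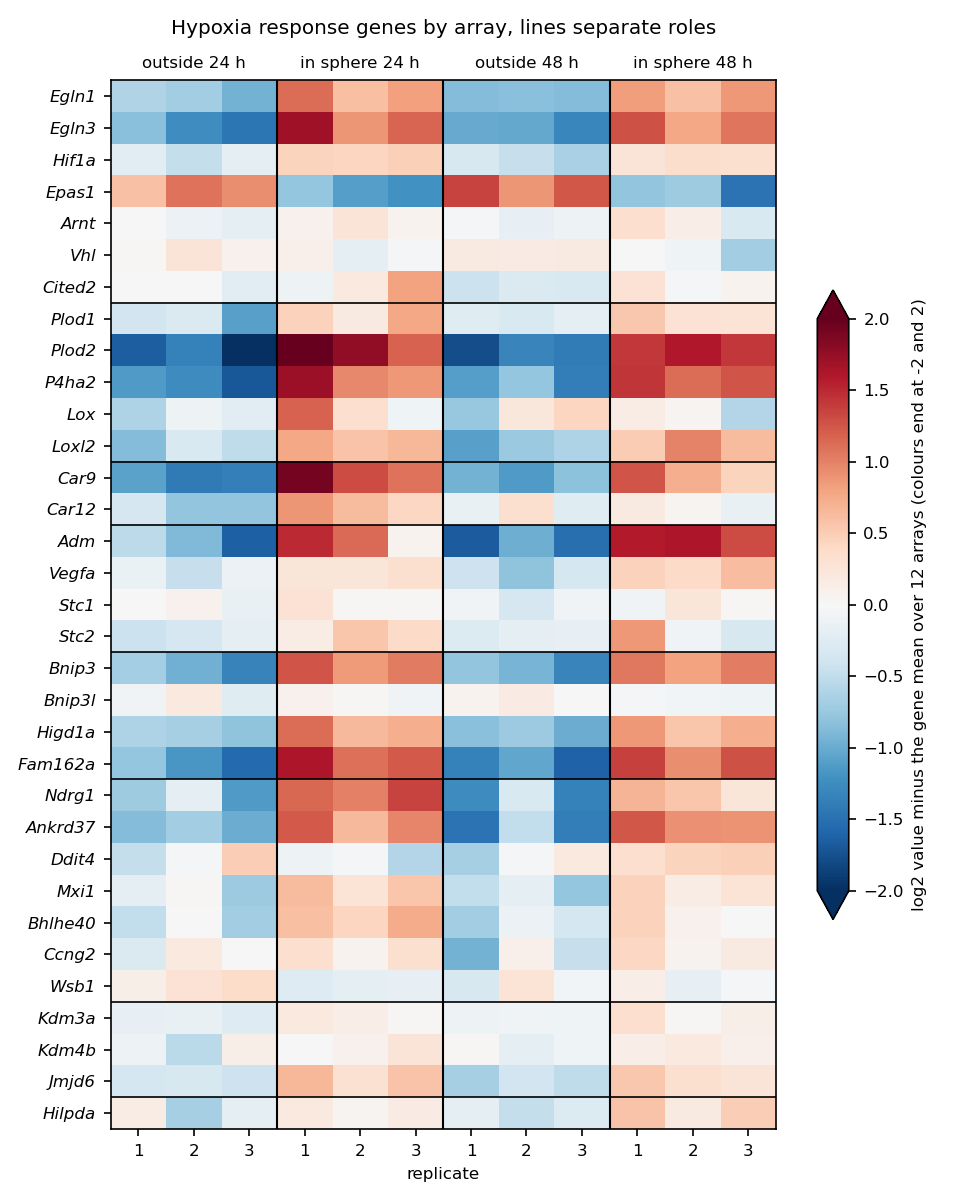
The map shows the log2 value of each gene with a single-gene probe set on each of the 12 arrays, minus that gene's mean over the arrays, with colours ending at -2 and 2, columns by group and replicate, and lines between roles. In-sphere columns are mostly red and outside columns mostly blue for Egln1, Egln3, Plod2, P4ha2, Loxl2, Car9, Adm, Bnip3, Higd1a and Fam162a, and Epas1 has the reverse colours.

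Between 24 h and 48 h, limma called 0 of the 32 genes within spheres (0% of all tested genes, 0 of 12488), where 4 genes had an unadjusted p under 0.05, namely Car12, Car9 and Ndrg1 with lower and Ddit4 with higher values at 48 h, beside 10.7% of all tested genes. Outside spheres limma called 0 of the 32 (0.336% of all tested genes), and 1, Car12, had an unadjusted p under 0.05, at 0.62 ± 0.19 (adjusted p = 0.201). The change of the in-sphere difference from 24 h to 48 h was called for 0 of the 32 genes (0% of all tested genes), with 5 at an unadjusted p under 0.05, beside 12.3% of all tested genes. These were Car12 (-1.23 ± 0.26, adjusted p = 0.127), Car9 (-0.94 ± 0.32, adjusted p = 0.276), Ddit4 (0.81 ± 0.37), Vegfa (0.50 ± 0.20) and Wsb1 (0.46 ± 0.21). For Car12 the outside values at 24 h exceeded the filter level on 1 of 3 arrays only, so its difference at 24 h and this change rest on values at or below that level. With the replicate number as a block, the change for Car12 was called (adjusted p = 0.0487, over all alternatives 0.0487 to 0.275). So the genes called at 1 time alone were not shown to differ between times, apart from Car12 under that block.

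Further genes of the pathway gave the surroundings of these differences. Of 50 other tested genes listed as HIF targets outside glycolysis, 19 were higher and 6 lower at 24 h and 20 and 5 at 48 h, with medians of 0.38 and 0.32. Of all tested genes, 15.8% were called higher and 13.6% lower at 24 h, and 15.2% and 22.3% at 48 h. At 24 h the largest were Tmem45a (2.63 ± 0.42), Selenbp1 (2.57 ± 0.23), the adenylate kinase Ak4 (2.13 ± 0.32) and the protein-folding oxidase Ero1a (1.87 ± 0.17), and the same genes gave 2.11 ± 0.42, 2.72 ± 0.23, 2.18 ± 0.32 and 2.14 ± 0.17 at 48 h. Averaged over its probe sets Ak4 gave 0.99 and 0.84. Among the lower ones at 48 h the largest differences were those of Tfrc (-2.02 ± 0.13) and Angptl4 (-1.97 ± 0.21). Of 19 tested glycolysis genes, 15 were higher and 2 lower at each time, with medians of 0.88 and 0.87. They were led by the aldolase Aldoc (2.46 ± 0.33 and 1.97 ± 0.33), the pyruvate dehydrogenase kinase Pdk1 (1.88 ± 0.15 and 1.73 ± 0.15) and the phosphofructokinase Pfkp (1.73 ± 0.15 and 1.54 ± 0.15), and Aldoc gave 1.48 and 1.27 over the mean of its probe sets. The 2 lower at 48 h were Slc2a3 (-1.49 ± 0.23, or -0.95 over the mean of its probe sets) and Pfkfb4 (-1.26 ± 0.19). Of 13 other tested HIF regulators, 1 was higher and 1 lower at 24 h, and 2 were higher and 3 lower at 48 h, with medians of -0.03 and -0.16. In either direction that was 15.4% at 24 h and 38.5% at 48 h, beside 29.4% and 37.5% of all tested genes, so the 48 h share was near that of all genes. Egln2, the remaining prolyl hydroxylase of the family, had differences of -0.37 ± 0.13 (adjusted p = 0.0498) and -0.64 ± 0.13 (adjusted p = 0.00218), and the 24 h call was lost on leaving out any 1 of the 6 arrays compared and under the replicate block (adjusted p = 0.0714, over all alternatives 0.0204 to 0.163). Hif1an, the asparaginyl hydroxylase that blocks HIF from its coactivators, was -0.29 ± 0.22 at 24 h (adjusted p = 0.389) and lower at 48 h, at -0.95 ± 0.22 (adjusted p = 0.00528), where the difference was -0.62 without replicate 3 in spheres and -0.41 over the mean of its probe sets. At 48 h, then, Egln1 and Egln3 were higher and Egln2 and Hif1an lower. The chaperone gene Hsp90aa1, whose protein holds HIF alpha, was higher at both times (0.61 ± 0.15 and 0.52 ± 0.15), its 48 h call lost without replicate 1 (adjusted p = 0.0508) or 3 (adjusted p = 0.0522) outside, over all alternatives 0.00195 to 0.0522.

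**Figure D4:**
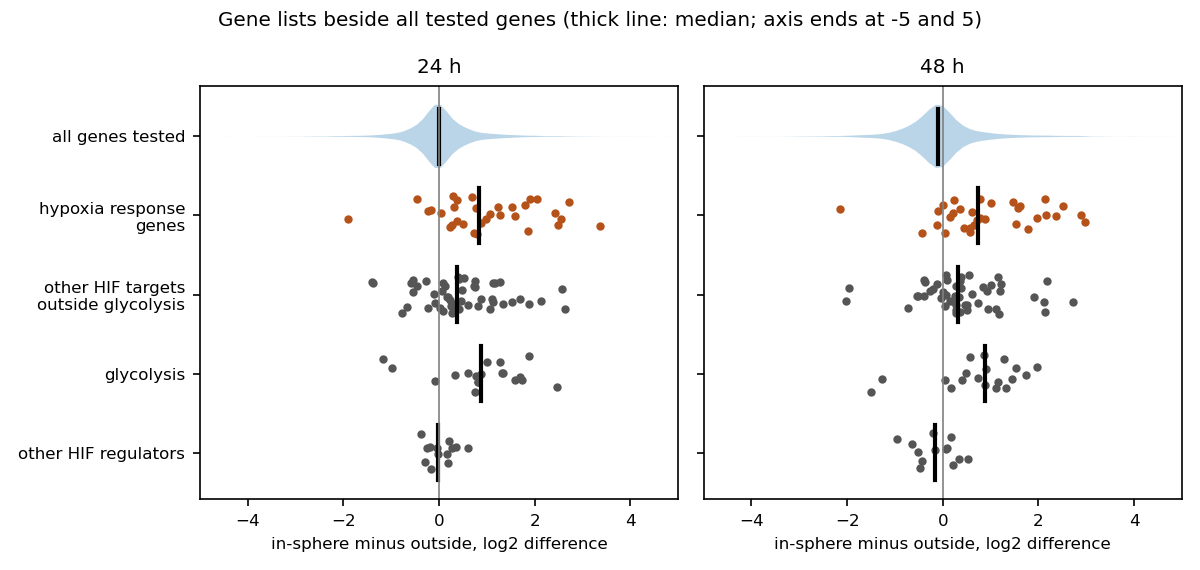
Points are in-sphere minus outside log2 differences of single genes at 24 h (left) and 48 h (right), for the hypoxia response genes and the other pathway lists, beside the distribution of all 12488 tested genes, with a thick line at each median; genes beyond the ends of the axis are not drawn. The medians of the hypoxia response genes (0.84 and 0.75) and of glycolysis (0.88 and 0.87) lie to the right of that of all genes (-0.0068 and -0.10).

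Markers of macrophages and of other cells were read beside these differences, from the same arrays. For the counts below, 15.8% of all tested genes were called higher and 13.6% lower at 24 h, and 15.2% and 22.3% at 48 h. All 14 macrophage markers with a probe set were above the filter level on every array, and Itgam, which encodes CD11b, was not called (0.15 ± 0.25 and 0.56 ± 0.25). Of the macrophage markers 1 was higher and 5 lower at 24 h and 2 and 5 at 48 h, among them the transcription factor Cebpa (-1.47 ± 0.19 and -2.31 ± 0.19) and the engulfment receptor Mertk (-0.91 ± 0.15 and -1.25 ± 0.15), both lower, and the lipopolysaccharide co-receptor Cd14 (0.54 ± 0.13 and 1.09 ± 0.13), higher. Of 12 tested neuroblastoma and sympathetic neuron markers, 2 were higher at 24 h and 3 at 48 h and 0 were lower, led by the growth cone protein Gap43 (3.99 ± 0.30 and 4.41 ± 0.30) and Ncam1 (0.99 ± 0.20 and 1.64 ± 0.20). Outside spheres at 48 h the mean of Gap43 was 2.507, below the filter level, with 1 of 3 arrays above it. The gene called at 48 h alone, Elavl4 (0.66 ± 0.11), exceeded the filter level on the 3 in-sphere arrays of that time and on 0 others, and so was tested through the group in which it was higher. Chga, Gata3, Tubb3, Nefl and Nefm were above the level on 0 arrays, and the catecholamine enzymes Th and Dbh were not called. The summed linear signal of the 18 markers with a probe set ran from 262 to 419 in spheres and from 148 to 162 outside at 24 h, and from 277 to 347 and from 129 to 135 at 48 h. Such a sum weighs genes of high value most, here Gap43 (mean 6.967 in spheres and 2.975 outside at 24 h) and Ncam1 (6.229 and 5.235). The median difference of the 12 tested markers was 0.0025 at 24 h and 0.0023 at 48 h. Among 13 markers of fibroblasts and stroma, 5 rose and 3 fell at 24 h and 6 and 4 did at 48 h, with the matrix genes Col3a1 (2.64 ± 0.31 and 3.28 ± 0.31), Dcn (2.60 ± 0.55 and 2.98 ± 0.55) and the surface protein Thy1 (2.36 ± 0.23 and 2.04 ± 0.23) higher and the matrix protein Mgp lower (-2.03 ± 0.33 and -2.33 ± 0.33). Their summed signal was 2690 to 5330 in spheres and 2200 to 2960 outside at 24 h, and 3980 to 4080 and 2780 to 4090 at 48 h. Most granulocyte markers went the other way, with 0 higher and 6 lower of 8 at each time, led at 24 h by Camp (-2.17 ± 0.43), and summed signals of 7040 to 10600 in spheres against 22400 to 28100 outside at 24 h and 3500 to 6970 against 17100 to 25700 at 48 h. The other 2, Elane and Mpo, had higher means in spheres at both times without a call, by 0.80 ± 0.39 and 0.62 ± 0.46 at 48 h. Of 5 tested endothelial markers 2 were lower at 24 h and 1 at 48 h, and the summed signal of the 8 with a probe set was 72.2 to 115 in spheres and 121 to 165 outside at 24 h, and 67.5 to 99.7 and 112 to 120 at 48 h. The summed signal of the 33 hypoxia response genes was 15100 to 18500 in spheres and 7460 to 8550 outside at 24 h, and 14300 to 17000 and 7240 to 8180 at 48 h. The part of these other cells in the differences of the hypoxia response genes was not tested.

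RNA integrity was read from the array control probe sets as the 3′ minus the 5′ log2 signal. For beta-actin it was 0.48 ± 0.13 (SD, n = 3) in spheres and 0.29 ± 0.054 outside at 24 h (exact two-sided permutation p = 0.10), and 0.41 ± 0.011 and 0.39 ± 0.013 at 48 h (exact p = 0.20). For GAPDH it was 0.16 ± 0.27 and 0.052 ± 0.11 at 24 h (exact p = 0.70), and 0.12 ± 0.020 and 0.079 ± 0.024 at 48 h (exact p = 0.10). With 3 arrays a group the smallest p possible was 0.10, and the beta-actin value at 24 h and the GAPDH value at 48 h did not overlap between groups. Its part in the differences of the hypoxia response genes was not tested.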

How the data were processed

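Total RNA of 12 macrophage samples was labelled with a 3′ IVT kit and hybridised to Affymetrix mouse arrays, as the labels' protocols say. Per the submitters' processing notes, the authors ran RMA in Affymetrix Expression Console 1.1, and what they deposited is a log2 value for each probe set. With RMA, dim probe sets show smaller differences than the RNA did, and a difference in total RNA per cell is lost. That the log base is 2 follows from the range of the values, and scanner files were not used here. All 45141 probe sets had values, with 0 missing, and the number of arrays limits precision.

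Of the probe sets, 28898 carried exactly 1 gene symbol in the platform annotation, and the one with the highest mean was kept for each of 17097 genes. A gene was tested if it exceeded 2.77, the 40th percentile of all values, on at least 3 arrays. A group-means model over all arrays was fitted with lmFit, contrasts.fit and eBayes in limma 3.58.1 (R 4.3.3), with Benjamini-Hochberg adjustment over 12488 genes and calls at an adjusted p under 0.05. The procedure was tested on simulated data for the 24 h comparison, with 200 of 12488 genes changed, fewer than were called here. It recovered 20.9% of genes given a log2 change of 0.5, 76.1% at 1 and 92.4% at 2, with 6 false calls. A gene not called may therefore still differ by such small amounts. The kept probe sets of Ndrg1, Arnt and Jmjd6 carry a suffix that Affymetrix uses for probes shared between transcripts.

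The hypoxia response genes, the other pathway lists and the marker lists were chosen with earlier results of these data known. All hypoxia response genes are named, and from each other list up to 4 called genes with the largest difference, or values of up to 2 if a list had no call. The markers Itgam, Th, Dbh, Elane and Mpo and those above the level on no array were named outside that rule, after their values were seen. So were Tfrc, Angptl4 and Pfkfb4. Summed signals are sums of 2 to the power of the log2 value.

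Replicate numbers come from the labels, and each number marks an independent experiment in which in-sphere and outside cells shared cultures, per the series' design text. Deviations from the group means correlated between same-numbered in-sphere and outside arrays at 0.0215, 0.12 and 0.0813 at 24 h and 0.117, 0.0417 and 0.112 at 48 h, between outside arrays of the 2 times at 0.471, 0.473 and 0.419, and between in-sphere arrays of the 2 times at 0.116, 0.14 and 0.0247. The main fit left the replicate number out, so its p-values are not paired. The fit with the replicate as a block, which treats the numbers as pairs on the basis of that text, is an alternative. Other alternatives were a random block, no filter and a filter at the 60th percentile, the mean of a gene's probe sets, arrays centred on their medians, array weights, a fit of only the groups compared, and each array left out in turn. Promoter sequences are those of RefSeq on GRCm38.p6, and coordinates are 1-based.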

Additional observations from a re-analysis of the deposited data

How the results depend on the processing

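Over 14 alternatives for each comparison between sites, 17 of the 22 genes called at 24 h were called under every one that tested them. So were 17 of the 21 called at 48 h, and no called gene changed sign. Car12, Stc2 and Kdm4b failed the stricter filter on low values and were thus tested under 13 of the 14. Car12 is among the 17 at 24 h. The number called ran from 19 to 23 at 24 h and from 18 to 24 at 48 h, and from 19 to 22 and 18 to 21 with 1 array left out. Calls lost under some alternative were those of Stc2, Wsb1, Vegfa, Mxi1 and Hif1a at 24 h and of Plod1, Bhlhe40, Ccng2 and Hif1a at 48 h, and the causes were not tested. Of the genes not called, 4 at 24 h and 3 at 48 h were called under some alternative. For the change of the difference between times, the fit with the replicate number as a block called 1 gene (Car12) in place of 0, and it changed no other count by more than 1.5 times. That block left 21 genes called at 24 h and 21 at 48 h. Genes not called changed sign under some alternative in 2 cases at 24 h, 3 at 48 h, 18 for time in spheres, 10 for time outside and 13 for the change between times. Values near the filter level, those of Stc1, Stc2, Car12 and of Epas1 in spheres, lie where signal over background limits precision.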
